A study of Mus musculus with 8 samples.

Results

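Solute carriers are membrane proteins that move sugars, amino acids, ions, metals, vitamins and metabolites across the plasma membrane and the membranes of organelles, and their genes carry the prefix Slc. The genes described here are those of the array with a symbol of Slc and a digit, and with a probe detected at a detection p-value under 0.05 on at least 4 of the 8 arrays. Of 474 Slc probes for 326 genes, 196 probes for 147 genes met this rule. The members were thus chosen by their detection p-values, and the presence of a gene in the set is not a result. Of the 147 genes, 3 are not transporters but carry such a symbol as interacting or neighbouring genes (Slc4a1ap, Slc9a3r1 and Slc7a6os), which leaves 144 transporter genes.

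The macrophages were derived from bone marrow of the mouse strain C57BL/6, and RNA of 8 cultures was measured on Illumina bead arrays, 1 array per well. Every culture was grown for 7 days with 15% L929-conditioned medium, which supplies macrophage growth factor, in DMEM with 10% FBS, and was deprived of that supplement for 12 hours. Then 4 wells received rat IAPP and 4 wells human IAPP, each at 15 µM for 12 hours, with the dose as in the sample titles and the same figure in mM in the treatment protocol. Islet amyloid polypeptide (IAPP) is a hormone of pancreatic beta cells. The human form aggregates into amyloid and the rat form, which served as control, does not readily do so. There were no untreated wells, so each rise or fall is relative to rat IAPP. Each replicate was 1 well of a 24-well plate, and the labels name no separate animals or cultures, so the p-values measure a spread between wells that may be technical.

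Transporters set which nutrients and ions a cell can take up, release or store, and many work at organelle membranes rather than at the cell surface. In macrophages they are known for glucose and amino acid supply during activation, for the recycling of iron from engulfed red cells, and for the movement of metals and small molecules out of lysosomes. Many solute carriers are single polypeptides, while some but not all members of the Slc7 family pair with the heavy chain encoded by Slc3a2.

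All 7 macrophage markers on the array were detected, with a summed level of 130450 to 136890 intensity units over the rat arrays and of 144113 to 147105 over the human arrays. Within that list Fcgr1 was 3.08-fold lower and Mertk 2.28-fold lower with human IAPP, Adgre1 was 1.39-fold lower and Cd14 was 1.55-fold higher. None of the T cell, B cell, erythroid, fibroblast, mast cell or dendritic cell markers on the array was detected on at least 4 arrays. Of 6 neutrophil markers Elane and S100a8 were detected, with a list sum of 2177 to 2536 on rat arrays and 1942 to 2868 on human arrays. Mean raw signal was 1523 to 1967 on rat arrays 1 to 3, 1180 on rat array 4 and 1144 to 1368 on the human arrays. The part of these marker and signal differences in the Slc results was not tested. In a bulk sample fewer cells of a type and less RNA per cell cannot be told apart.

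Slc probes were mostly either undetected throughout or detected throughout. Of the 474 probes 227 were detected on no array and 167 on all 8, while 29 of the 196 members were detected on 4 to 7 arrays. Just inside the rule lay 6 probes detected on exactly 4 arrays, with raw signals of 287 to 490 units, among them the tested probes of Slc2a9 (4 rat arrays), Slc45a3 (4 human arrays) and Slc7a1 (4 human arrays). Just outside lay 13 probes detected on exactly 3 arrays. Examples are Slc33a1, with mean log2 levels of 6.14 on rat and 5.57 on human arrays, and Slc22a14, with 5.77 and 6.16. The glutamine and neutral amino acid transporter genes Slc1a5 and Slc1a4, the lactate transporter gene Slc16a1, the nucleoside transporter gene Slc28a2 and Slc37a2 were on the array but met the rule with no probe.

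Levels below are log2 intensities after background correction and quantile normalisation, and a gene is represented by its brightest tested probe. A gene was called when its adjusted p in limma, over all 11451 probes tested, was under 0.05. Among the 147 Slc genes 43 rose and 45 fell with human IAPP, and 59 were not called. Over all 7809 genes tested 23.5% rose and 32.0% fell, 55.5% either way. Of the 196 probes 52 rose and 57 fell, beside 24.6% and 29.9% of all probes and 54.5% either way. A called change of at least 1.5-fold was found for 24 rising and 25 falling Slc genes, beside 12.0% and 14.8% of all genes. The 4 human wells did not overlap the 4 rat wells for 85 of 147 genes, beside 51.3% of all genes. Since a gene detected only where it was high had to differ, the 126 genes whose probe was detected on all 8 arrays were also counted. Of these 35 rose and 42 fell, beside 24.3% and 33.9% of all genes so detected.

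The differences of the Slc genes ran from -3.27 to 2.96 on the log2 scale, with a median of -0.0047 and an SD of 0.80, beside a median of -0.055 and an SD of 0.69 over all genes. The balance of rises and falls depended on the scaling between arrays. With median scaling in place of quantile normalisation the median over all probes moved to -0.39, with 20 rises and 52 falls among Slc genes, while the authors' rescaled values gave 52 rises and 41 falls. The share of rises among all called probes was 45.1% after quantile normalisation, 15.6% after median scaling and 55.4% in the authors' rescaled values. In each of up to 18 alternatives, 20 of the 43 rises and 28 of the 45 falls kept their direction and their call.

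**Figure D1:**
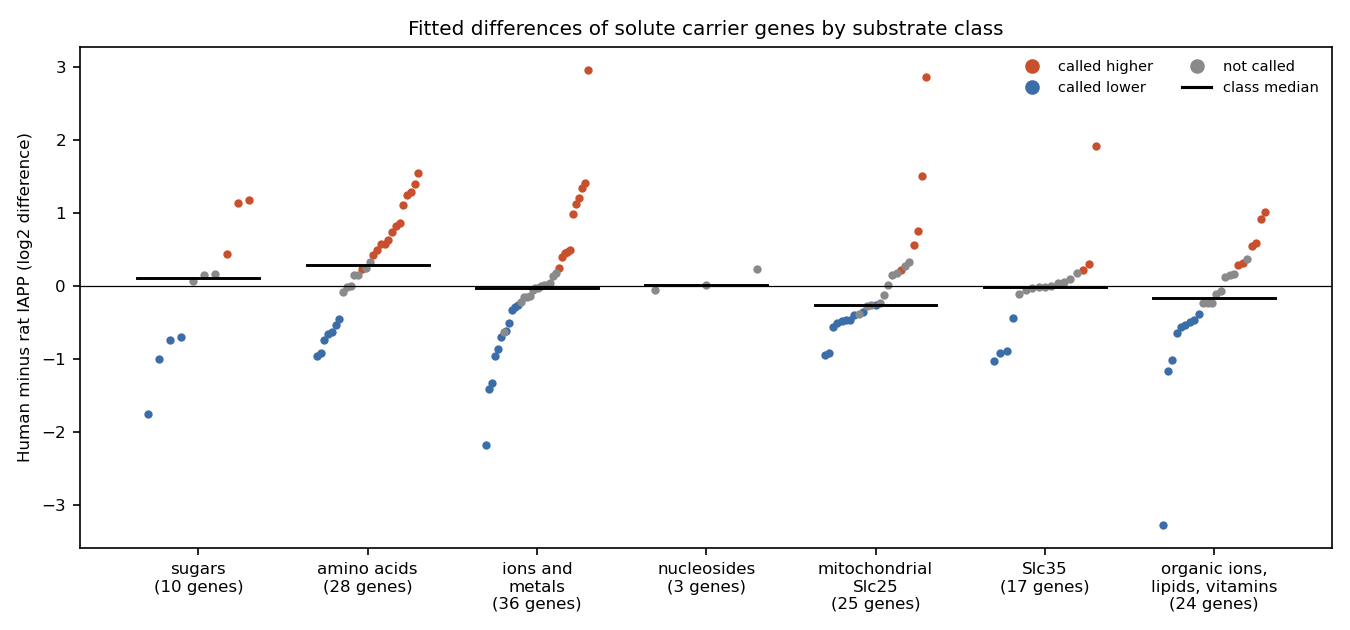
Fitted log2 differences, human minus rat IAPP, of 143 Slc transporter genes in 7 substrate classes, with 1 point per gene and a bar at the class median. Each class but the nucleoside carriers holds genes on both sides of 0 that were called, and the amino acid class has the median of 0.29.

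The largest fitted rise was that of Slc20a1, which encodes a sodium-dependent phosphate importer of the plasma membrane. Its log2 level was 6.00, 6.02, 6.59 and 6.03 on rat arrays 1 to 4 and 8.96, 9.11, 9.05 and 9.35 on human arrays 1 to 4, the order kept below. The lowest human well exceeded the highest rat well by over 2 units, and the probe was detected on 1 rat array and on all human arrays. The rise was 7.77-fold (log2 difference 2.96, SE 0.15, adjusted p = 3.52e-07, with 4 wells in each group here and below), and the log2 difference ran from 1.22 to 3.10 over the alternatives, called in each alternative that tested it. Its rank is not fixed, since its rat level was above background on 1 array alone and Slc25a25 rose more in the authors' rescaled values, without background correction and with an offset of 50. Next came Slc25a25, a calcium-regulated carrier of ATP-Mg and phosphate in the inner mitochondrial membrane, at 7.46, 7.34, 7.44 and 7.27 with rat IAPP and 10.01, 10.37, 10.29 and 10.25 with human IAPP. The wells of each group lay within 0.4 log2 units of each other and the groups were far apart. This gene rose 7.22-fold (log2 difference 2.85, SE 0.10, adjusted p = 2.89e-08).

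Among the falls, Slc46a3, a carrier of the lysosomal membrane, stood at 12.08, 12.37, 12.15 and 12.29 on the rat arrays and 9.31, 8.96, 8.75 and 8.80 on the human arrays. Its highest human well lay below its lowest rat well by more than the spread in either group. It was 9.62-fold lower with human IAPP (log2 difference -3.27, SE 0.13, adjusted p = 8.84e-08). Slc40a1, which encodes ferroportin, the cell's iron exporter, measured 14.41, 14.32, 14.52 and 14.06 with rat IAPP and 12.37, 11.98, 12.18 and 12.07 with human IAPP. Again the groups did not overlap, and the gene was 4.53-fold lower (log2 difference -2.18, SE 0.12, adjusted p = 6.84e-07). Both falls kept their call in every alternative, between -3.65 and -2.56 for Slc46a3 and between -2.41 and -1.85 for Slc40a1. Other large changes were called throughout but shrank more, to 1.69 for Slc25a25, 0.99 for Slc35e4, 0.57 for Slc7a2, -0.65 for Slc9a9, -0.53 for Slc22a5, -0.41 for Slc35e2, -0.50 for Slc38a9 and -0.24 for Slc39a3 on the log2 scale.

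**Figure D2:**
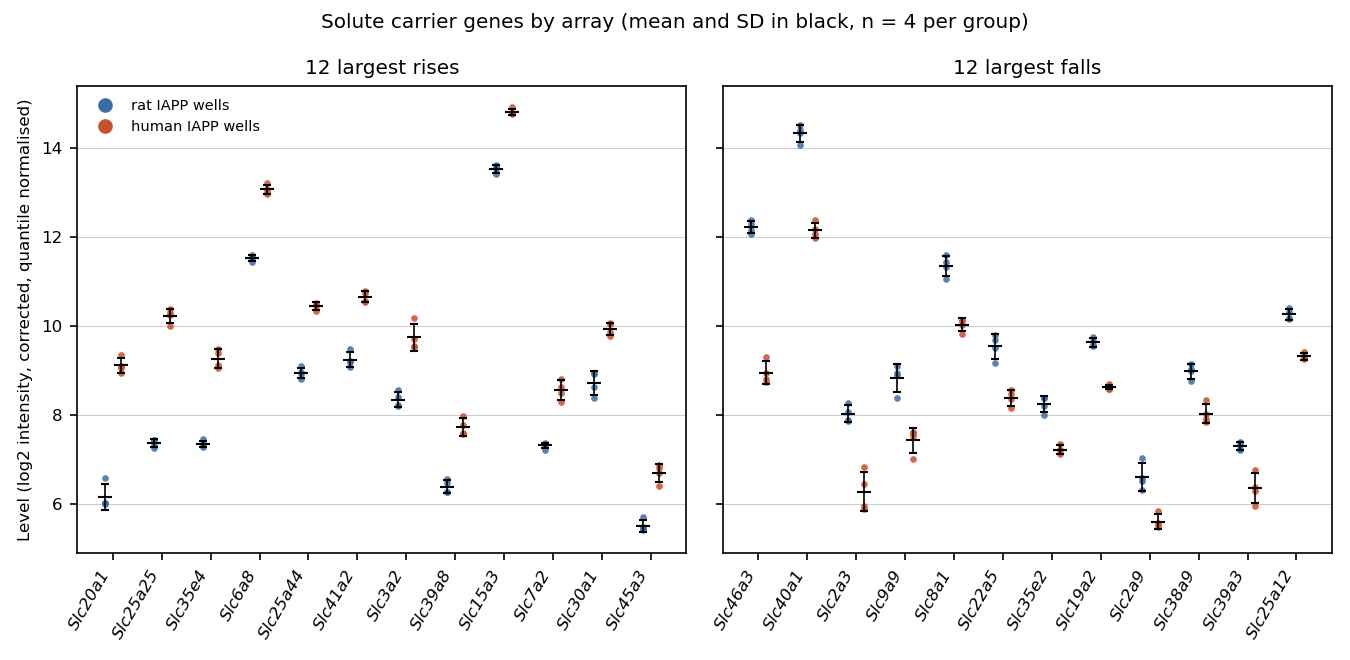
Log2 levels of the 12 largest rises and the 12 largest falls among called Slc genes whose groups do not overlap, with 1 point per well and bars for mean and SD (n = 4 per group). The rat and human wells of each gene lie apart, and heights of different genes are not comparable because each is a different probe.

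The 250 bases upstream of the most upstream RefSeq start (GRCm38.p6) are shown for the genes with the largest rises and the largest fall, and for the cystine transporter gene Slc7a11, a gene known for its amino acid response elements. Matches of TGATGNAA, the core of such elements, of TGCGCNC, a form of the core of metal response elements, and of CACGTG, the E-box, were searched on both strands and are in capitals. In Slc20a1 a CACGTG and a TGCGCNC match lie side by side, so that their capitals run together.
Slc20a1: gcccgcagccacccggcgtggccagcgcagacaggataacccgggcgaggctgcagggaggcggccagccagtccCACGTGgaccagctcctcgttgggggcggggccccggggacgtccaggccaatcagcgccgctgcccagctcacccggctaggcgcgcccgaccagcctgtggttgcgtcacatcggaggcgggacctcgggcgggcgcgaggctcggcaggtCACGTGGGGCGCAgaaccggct
Slc25a25: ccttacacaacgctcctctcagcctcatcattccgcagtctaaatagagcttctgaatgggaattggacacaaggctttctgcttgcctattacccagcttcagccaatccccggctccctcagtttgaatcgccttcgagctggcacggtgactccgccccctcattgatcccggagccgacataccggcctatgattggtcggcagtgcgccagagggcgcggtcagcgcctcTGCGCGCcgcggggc
Slc46a3: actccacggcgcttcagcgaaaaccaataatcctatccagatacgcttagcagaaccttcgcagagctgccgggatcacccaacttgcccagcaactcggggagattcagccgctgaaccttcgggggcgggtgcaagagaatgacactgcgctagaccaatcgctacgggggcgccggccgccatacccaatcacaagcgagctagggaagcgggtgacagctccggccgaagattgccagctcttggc
Slc7a11: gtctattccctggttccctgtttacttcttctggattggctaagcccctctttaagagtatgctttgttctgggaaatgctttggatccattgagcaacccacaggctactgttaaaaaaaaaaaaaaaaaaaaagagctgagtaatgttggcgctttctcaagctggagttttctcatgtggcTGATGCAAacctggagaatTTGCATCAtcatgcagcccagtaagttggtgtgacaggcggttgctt
They lie at chr2:129198523-129198772 on the plus strand for Slc20a1, and on the minus strand at chr2:32451471-32451720 for Slc25a25, chr5:147894816-147895065 for Slc46a3 and chr3:50443614-50443863 for Slc7a11. Slc20a1 held 2 CACGTG and 1 TGCGCNC, Slc25a25 1 TGCGCNC, Slc46a3 no match and Slc7a11 2 TGATGNAA. A promoter was found for 116 of the 147 genes. A gene was counted once if any of its listed starts held the motif in the 250 bases upstream, whereas the sequences above show 1 start each. TGATGNAA occurred in 4.31% of these and in 3.91% of all 27025 genes with a promoter, TGCGCNC in 22.4% and 14.0%, and CACGTG in 18.1% and 6.86%. The 2 sets are not alike, since the 116 genes were chosen by detection and the 27025 were not. The 116 genes had 161 windows and the 27025 had 32851, so the chance of a match per gene also differed. Whether the Slc shares differ from those of other detected genes was not tested. By call, TGATGNAA was present in 0 of 34 genes that rose, 3 of 35 that fell and 2 of 47 not called. TGCGCNC was found in 8, 8 and 10 of these genes and CACGTG in 5, 5 and 11. A match describes the letters of the window and shows no binding.

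The sugar class holds glucose and hexose transporters and related genes, of which 10 were tested. In this class 3 rose and 4 fell, or 30% and 40%, beside 23.5% and 32.0% of all genes. The class median of 0.11 turned to -0.25 with median scaling. Slc2a1, the widely expressed glucose importer GLUT1, lay at 13.56, 13.52, 13.49 and 13.50 with rat IAPP and 14.64, 14.77, 14.57 and 14.64 with human IAPP. The rat wells differed by less than 0.1 and all human wells were about 1 unit above them. The rise was 2.20-fold (log2 difference 1.13, SE 0.07, adjusted p = 1.72e-06). Slc2a3, a high-affinity glucose importer, went the other way, with 7.88, 7.90, 8.28 and 8.08 on rat arrays and 6.46, 6.83, 5.97 and 5.89 on human arrays. Only 2 of its 4 human arrays detected it, and the fall was 3.35-fold (log2 difference -1.74, SE 0.20, adjusted p = 7.13e-05), with a log2 difference of -2.04 to -0.54 over the alternatives.

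The lysosomal hexose transporter gene Slc2a6 rose by 0.43 on the log2 scale (SE 0.07, adjusted p = 5.90e-04), a call lost with median scaling (0.23, adjusted p = 0.38). Slc45a3 was not detected on any rat array, with 5.45, 5.72, 5.42 and 5.49 there and 6.41, 6.71, 6.81 and 6.87 on human arrays. It was at least 1.55-fold higher with human IAPP. Slc2a9, a urate transporter, was in turn detected on no human array and was at least 1.34-fold lower there. Its rat wells read 6.32, 6.58, 6.51 and 7.04 and its human wells 5.49, 5.57, 5.55 and 5.85. The words at least mark such genes, for which the dim group gives only a bound. Each of them met the detection rule through the bright group alone and so had to differ, and the counts of this class hold 1 such rise and 1 such fall. Slc50a1 and Slc2a8 fell 1.66-fold and 1.62-fold (adjusted p = 5.57e-04 and 0.0198), and the wells of Slc2a8 overlapped. Neither fall was called against rat well 4 alone (adjusted p = 0.072 and 0.078). That of Slc2a8 was also lost without rat replicate 1 (-0.65, adjusted p = 0.052) and as a mean over its probes (-0.27, adjusted p = 0.088), and its other 2 tested probes were not called. Slc2a2, Slc45a4 and Slc37a3 were not called.

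Amino acid and peptide carriers numbered 28 tested genes, of which 14 rose and 7 fell. These were 50% and 25% of the class, beside 23.5% and 32.0% of all genes. Of the 24 genes detected on all 8 arrays 11 rose and 7 fell, beside 24.3% and 33.9% of all genes so detected. The class median was 0.29, beside -0.055 over all genes. With median scaling it was 0.038 beside -0.39 over all probes, with 7 rises. The class takes in the whole Slc6 family, whose members also carry creatine, taurine, betaine and monoamines. The Slc7 family had 8 tested genes, with 5 rises and 2 falls, beside 23.5% and 32.0% of all genes. Slc7a5 encodes LAT1, an importer of large neutral amino acids, and lay at 9.55, 9.42, 9.50 and 9.63 with rat IAPP and 10.54, 10.59, 10.78 and 10.64 with human IAPP. Its heavy chain partner Slc3a2 lay at 8.57, 8.20, 8.22 and 8.40 with rat and at 9.53, 9.56, 9.72 and 10.19 with human IAPP. The human wells of both genes were all above the rat wells, and human well 4 was the highest for Slc3a2. The rises were 2.16-fold for Slc7a5 (SE of the log2 difference 0.08, adjusted p = 4.46e-06) and 2.64-fold for Slc3a2 (SE 0.15, adjusted p = 5.14e-05).

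Among light chains that pair with Slc3a2, Slc7a8 and Slc7a6 rose 1.55-fold and 1.49-fold and Slc7a7 fell 1.57-fold (adjusted p = 5.11e-05, 0.00168 and 0.00110). With median scaling the Slc7a8 and Slc7a6 differences were 0.27 and 0.15 and no longer called. The cystine importer gene Slc7a11, another partner of Slc3a2, read 12.71, 12.47, 12.58 and 12.13 on rat arrays and 12.57, 12.66, 12.87 and 12.77 on human arrays. Its groups overlapped and it was not called (log2 difference 0.24, 95% interval -0.05 to 0.53, adjusted p = 0.138). Against rat well 4 alone it was called higher (0.59, adjusted p = 0.024), as it was in the rescaled values of the authors (0.44, adjusted p = 0.0011). The cationic amino acid transporter gene Slc7a2, which supplies arginine to macrophages, lay at 7.37, 7.34, 7.35 and 7.22 with rat IAPP and 8.29, 8.82, 8.50 and 8.64 with human IAPP, without overlap. It rose 2.37-fold (SE of the log2 difference 0.11, adjusted p = 1.56e-05), and a second probe rose 1.53-fold. Slc7a1, its relative, was undetected on the rat arrays and at least 1.29-fold higher on the human arrays. It met the detection rule through these alone, so 1 of the 5 rises of the family was fixed by the rule.

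Creatine is imported by the product of Slc6a8, whose levels were 11.59, 11.56, 11.53 and 11.43 with rat IAPP and 12.97, 13.22, 13.02 and 13.07 with human IAPP. The groups were more than 1 unit apart, and the rise was 2.91-fold (log2 difference 1.54, SE 0.08, adjusted p = 4.83e-07). Of the 7 tested genes of its family 2 rose and 3 fell, beside 23.5% and 32.0% of all genes. The other rise was that of Slc6a19 (log2 difference 0.82, adjusted p = 0.00139), whose probe was not detected on all 8 arrays. The members for betaine and GABA (Slc6a12), GABA (Slc6a13) and taurine (Slc6a6) fell 1.67-fold, 1.45-fold and 1.36-fold (adjusted p = 1.02e-04, 0.00272 and 0.00170). The Slc6a6 fall was not called in the authors' rescaled values (-0.09, adjusted p = 0.40), and its raw signals reached 64915 units, above the 60000 taken here as near the ceiling of the scanner.

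The carriers of the lysosomal membrane named here from the amino acid class were all called and did not move one way. In the class 7 genes were not called, among them Slc36a1 and Slc38a7, with log2 differences of -0.00042 and 0.16. Slc38a7 was called higher in the authors' rescaled values (0.19, adjusted p = 0.032). Slc15a3, an exporter of histidine and small peptides, lay at 13.52, 13.41, 13.62 and 13.56 with rat IAPP and 14.76, 14.79, 14.91 and 14.78 with human IAPP. All human wells exceeded all rat wells, and the rise was 2.43-fold (SE of the log2 difference 0.08, adjusted p = 1.16e-06). Its relative Slc15a4 rose 1.17-fold (adjusted p = 0.0269) and turned to -0.11 with median scaling. The Slc15a4 call was kept in only 8 of 18 alternatives. Its second tested probe was not called (log2 difference -0.17), and the mean over its probes was 0.03, also without a call. Slc66a1, an exporter of cationic amino acids, rose 1.49-fold (adjusted p = 4.38e-04), a call lost with median scaling. Slc38a9, an arginine sensor of the lysosome, fell 1.94-fold (SE of the log2 difference 0.12, adjusted p = 1.65e-04). It lay at 8.76, 9.15, 9.04 and 8.99 with rat IAPP and 8.34, 8.04, 7.90 and 7.85 with human IAPP. The glutamine transporter gene Slc38a2 was not called (log2 difference -0.08, 95% interval -0.50 to 0.35).

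**Figure D3:**
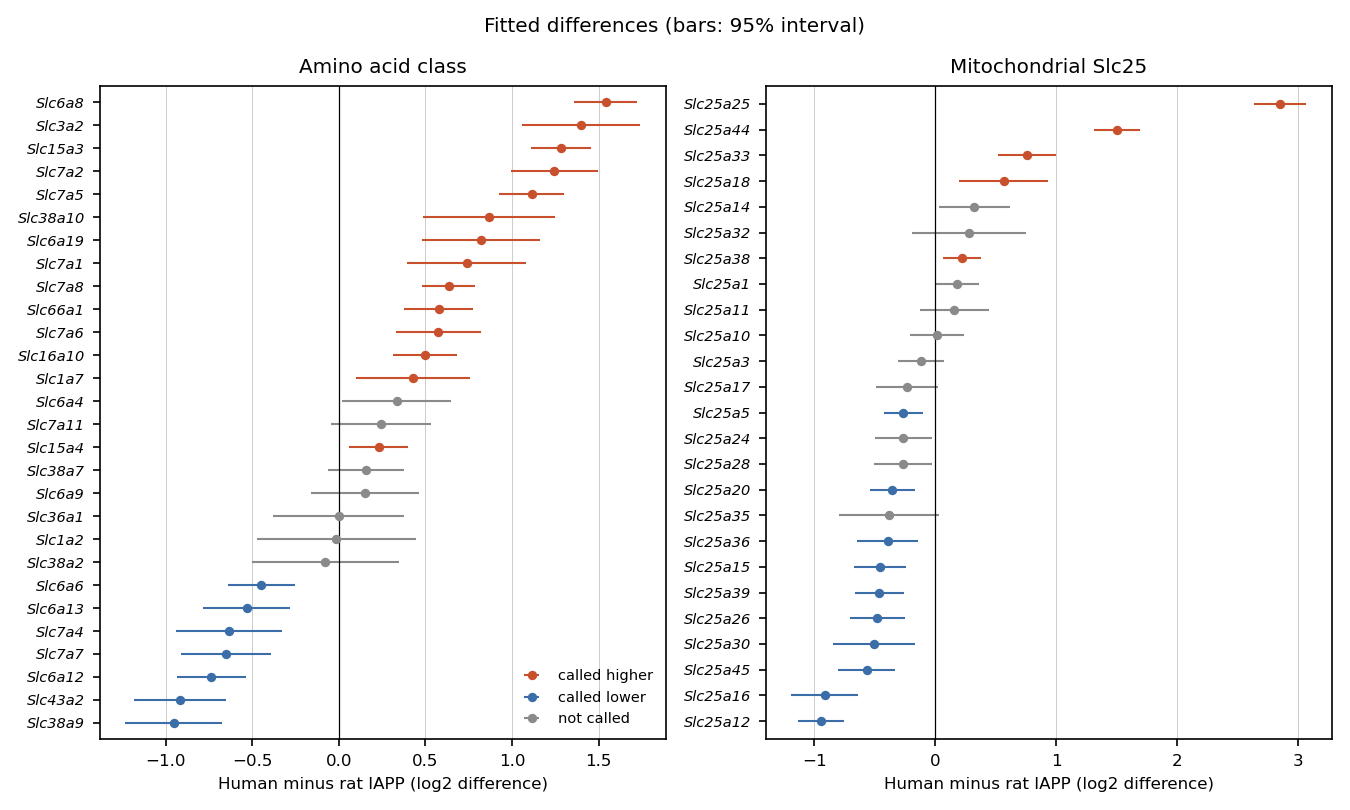
Fitted log2 differences, human minus rat IAPP, with 95% intervals for the 28 amino acid and 25 mitochondrial Slc25 genes, coloured by call. In the amino acid class 14 genes are called higher and 7 lower, and in the mitochondrial class 5 and 10, with Slc25a25 at 2.85 far from the others.

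Ion and metal carriers were the largest class with 36 tested genes, of which 11 rose and 11 fell. Each count is 30.6% of the class, beside 23.5% rising and 32.0% falling over all genes. Of the 31 genes detected on all 8 arrays 8 rose and 10 fell, beside 24.3% and 33.9% of all genes so detected. The class median of -0.026 changed sign in the authors' rescaled values (0.037) and was -0.40 with median scaling. Of the iron carriers, Slc40a1 fell as given above. Slc11a1 and Slc11a2, which move iron and other divalent metals out of phagosomes and endosomes, were not called. Slc11a1 read 15.50, 15.55, 15.69 and 15.45 on rat arrays and 15.49, 15.49, 15.63 and 15.50 on human arrays, with a log2 difference of -0.02 (95% interval -0.20 to 0.16), and turned to 0.35 (adjusted p = 0.0015), a called rise, in the authors' rescaled values. Its raw signals reached 64089 units, also above 60000, which limits what a small difference there can show. For Slc11a2 the difference was 0.01 (95% interval -0.21 to 0.23). The heme transporter gene Slc48a1 and the folate and heme carrier gene Slc46a1, of another class, fell 1.30-fold and 1.44-fold (adjusted p = 0.00950 and 0.0139). The first call was lost in the authors' rescaled values and the second against rat well 4 alone.

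Zinc importers of the Slc39 family split into 4 rises and 2 falls among 10 tested genes, beside 23.5% and 32.0% of all genes. Slc39a8 and Slc39a14 encode plasma membrane importers of zinc, manganese and iron. Slc39a8 lay at 6.47, 6.56, 6.27 and 6.29 with rat IAPP and 7.58, 7.59, 7.77 and 7.99 with human IAPP and rose 2.53-fold (SE of the log2 difference 0.11, adjusted p = 1.08e-05). Slc39a14 lay at 5.51, 5.72, 5.74 and 6.45 with rat and at 6.96, 7.13, 6.84 and 6.97 with human IAPP, and rose by a fitted 2.18-fold (SE 0.18, adjusted p = 6.05e-04). Its rat level was not above background on 3 of the 4 rat arrays, so the size of that fold is uncertain. For both genes the lowest human well was above the highest rat well. Without background correction the log2 differences were 0.43 and 0.29, the lowest of all alternatives. Slc39a6 and Slc39a10 rose 1.97-fold and 1.38-fold (adjusted p = 6.75e-05 and 0.0160), the second without a call under median scaling.

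The zinc importer gene Slc39a3 fell 1.93-fold (SE of the log2 difference 0.15, adjusted p = 5.53e-04), from 7.38, 7.23, 7.23 and 7.39 with rat IAPP to 5.97, 6.31, 6.78 and 6.38 with human IAPP, where 3 arrays detected it. Slc39a1, also a zinc importer, was not called (log2 difference -0.63, 95% interval -1.40 to 0.14). Its rat wells 1 to 3 read 7.87 to 8.2 and rat well 4 only 6.47, and without that well it was called lower at -1.02 (adjusted p = 0.0010). It was also called lower with median scaling (-1.05, adjusted p = 0.013). In 16 of 18 alternatives Slc39a1 stayed without a call, and over all of them its difference ran from -1.05 to 0.53. Slc30a1, the zinc exporter of the plasma membrane, lay at 8.96, 8.63, 8.93 and 8.39 with rat IAPP and 9.86, 9.77, 10.04 and 10.06 with human IAPP. It rose 2.31-fold without overlap (SE of the log2 difference 0.14, adjusted p = 6.39e-05). Of the 4 tested genes of the Slc30 family 2 rose and 2 were not called, beside 23.5% rising and 32.0% falling over all genes. The other rise, of Slc30a6, was 0.25 on the log2 scale (adjusted p = 0.0237). It kept its call in only 12 of 18 alternatives and turned to -0.16, not called, with median scaling.

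The magnesium transporter genes Slc41a2 and Slc41a3 moved apart. Slc41a2 lay at 9.19, 9.21, 9.09 and 9.49 with rat IAPP and 10.54, 10.75, 10.56 and 10.79 with human IAPP and rose 2.67-fold (SE of the log2 difference 0.11, adjusted p = 4.46e-06). Slc41a3 fell 1.62-fold (adjusted p = 0.00111). The 2 sodium-phosphate importers of the plasma membrane also moved apart, with Slc20a1 up and Slc20a2 1.41-fold lower (adjusted p = 0.00225), a fall not called against rat well 4 alone (-0.44, adjusted p = 0.052). Xpr1, the phosphate exporter of the plasma membrane, was 1.93-fold lower (adjusted p = 1.37e-05).

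Slc9a9, a sodium-proton exchanger of endosomes, read 8.91, 9.11, 8.94 and 8.38 on rat arrays and 7.59, 7.62, 7.52 and 7.01 on human arrays. Slc8a1, the sodium-calcium exchanger of the plasma membrane, read 11.45, 11.32, 11.59 and 11.06 with rat and 10.12, 10.03, 10.15 and 9.83 with human IAPP. In both genes well 4 was the lowest of its group on either side, and neither gene's groups overlapped. The falls were 2.64-fold for Slc9a9 (SE of the log2 difference 0.18, adjusted p = 1.51e-04) and 2.50-fold for Slc8a1 (SE 0.12, adjusted p = 1.84e-05).

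**Figure D4:**
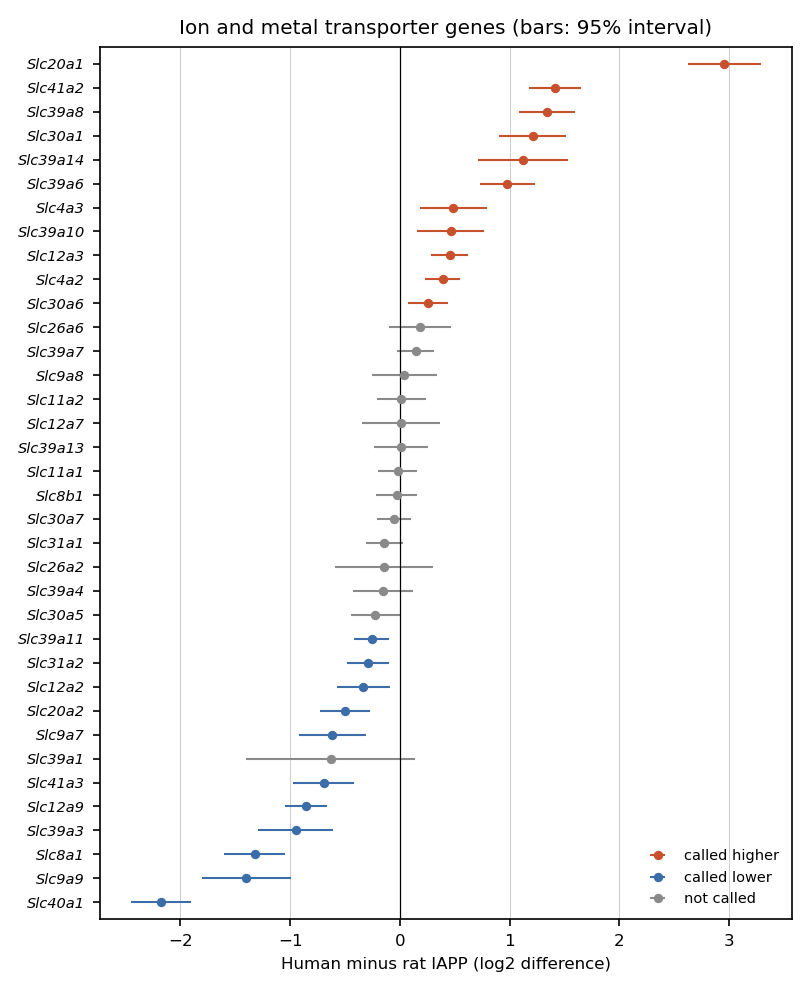
Fitted log2 differences, human minus rat IAPP, with 95% intervals for the 36 ion and metal transporter genes, coloured by call. From Slc40a1 at -2.18 to Slc20a1 at 2.96, 11 genes are called higher, 11 lower and 14 not called.

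The mitochondrial Slc25 carriers, which exchange metabolites across the inner membrane, had 25 tested genes, with 5 rises and 10 falls. These were 20% and 40% of the class, beside 23.5% and 32.0% of all genes. The class median was -0.26 beside -0.055 over all genes, and it was -0.50 with median scaling and -0.061 in the authors' rescaled values. Besides Slc25a25, the carrier gene for branched-chain amino acids Slc25a44 rose. It lay at 9.10, 8.92, 8.81 and 8.96 with rat IAPP and 10.33, 10.46, 10.48 and 10.53 with human IAPP. No rat well came within 1 unit of any human well, and the rise was 2.83-fold (SE of the log2 difference 0.09, adjusted p = 8.20e-07). The pyrimidine nucleotide carrier gene Slc25a33 rose 1.69-fold (adjusted p = 2.55e-04), a call lost with median scaling (0.34, adjusted p = 0.17).

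Of the falls, Slc25a12, the aspartate-glutamate carrier, lay at 10.32, 10.18, 10.40 and 10.15 with rat IAPP and 9.43, 9.29, 9.31 and 9.25 with human IAPP. The groups did not overlap, and it fell 1.92-fold (SE of the log2 difference 0.08, adjusted p = 1.44e-05). Slc25a16 fell 1.88-fold (SE 0.12, adjusted p = 1.95e-04), from 10.75, 10.69, 10.78 and 10.22 on the rat arrays to 9.65, 9.68, 9.74 and 9.73 on the human arrays, and its rat well 4 was the lowest of its group. Smaller falls were those of the mitochondrial glutathione carrier gene Slc25a39, the ornithine carrier gene Slc25a15 and the acylcarnitine carrier gene Slc25a20, at 1.38-fold, 1.37-fold and 1.28-fold (adjusted p = 0.00196, 0.00271 and 0.00491). The calls of Slc25a15 and Slc25a20 were lost against rat well 4 alone and in the mean over probes.

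The ADP-ATP exchanger gene Slc25a5 was called 1.20-fold lower (adjusted p = 0.0111), but with the authors' rescaled values its difference was 0.074 and with median scaling -0.42 without a call. The phosphate carrier gene Slc25a3 was not called (log2 difference -0.12, 95% interval -0.31 to 0.07). Carriers of the citric acid cycle's intermediates (citrate for Slc25a1, dicarboxylates for Slc25a10 and oxoglutarate for Slc25a11) had differences of 0.18, 0.02 and 0.16 on the log2 scale without a call. A second, dimmer Slc25a1 probe was called 1.31-fold higher.

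The Slc35 family includes carriers of nucleotide sugars into the endoplasmic reticulum and the Golgi apparatus, beside other members. Of its 17 tested genes 3 rose, 4 fell and 10 were not called, with a median of -0.0069 that was 0.057 in the authors' rescaled values. The shares of 17.6% rising and 23.5% falling stood beside 23.5% and 32.0% of all genes. Slc35e4 rose 3.76-fold (log2 difference 1.91, SE 0.11, adjusted p = 8.47e-07). It lay at 7.33, 7.29, 7.46 and 7.35 with rat IAPP and 9.12, 9.49, 9.05 and 9.41 with human IAPP, well apart. The other 2 rises, of Slc35a2 and Slc35b3, were 1.23-fold and 1.16-fold and turned to -0.14 and -0.17, not called, with median scaling. These 2 calls were kept in only 8 and 10 of 18 alternatives. The CMP-sialic acid carrier gene Slc35a1 and the GDP-fucose carrier gene Slc35c1 fell 1.89-fold and 1.36-fold (adjusted p = 1.99e-04 and 5.01e-04). Slc35a1 lay at 10.66, 10.56, 10.73 and 10.18 with rat IAPP and 9.78, 9.59, 9.57 and 9.53 with human IAPP. Slc35e2 and Slc35a5 fell 2.03-fold and 1.86-fold (adjusted p = 2.91e-05 and 5.48e-05). A second Slc35e2 probe was not called (log2 difference -0.36).

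Carriers of organic ions, monocarboxylates, lipids and vitamins had 24 tested genes, with 6 rises and 9 falls and a median of -0.17, which was -0.50 with median scaling. The shares were 25% rising and 37.5% falling, beside 23.5% and 32.0% of all genes. Slc46a3 led the falls as given above. Slc22a5, the carnitine importer, lay at 9.69, 9.52, 9.81 and 9.16 with rat IAPP and 8.47, 8.36, 8.56 and 8.15 with human IAPP. Rat and human wells did not overlap, and it fell 2.24-fold (SE of the log2 difference 0.15, adjusted p = 1.26e-04). A second Slc22a5 probe fell 1.53-fold and the remaining one was not called, with a log2 difference of 0.20. The thiamine importer gene Slc19a2 read 9.57, 9.67, 9.77 and 9.55 on rat arrays and 8.60, 8.59, 8.70 and 8.65 on human arrays and fell 2.01-fold (SE 0.08, adjusted p = 5.26e-06).

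The choline transporter gene Slc44a1, the lysosomal sialic acid exporter gene Slc17a5 and the biotin and pantothenate importer gene Slc5a6 fell 1.56-fold, 1.47-fold and 1.38-fold (adjusted p = 3.53e-04, 0.00127 and 6.11e-04). A second Slc44a1 probe did not fall and was not called (log2 difference 0.13). In contrast, the vitamin C importer gene Slc23a2 rose 2.02-fold (SE of the log2 difference 0.11, adjusted p = 4.79e-05), from 10.53, 10.46, 10.41 and 10.28 on the rat arrays to 11.20, 11.50, 11.35 and 11.66 on the human arrays. The lactate exporter gene Slc16a3 (MCT4) lay between 8.0 and 8.34 in the rat wells and between 9.02 and 9.28 in the human wells, without overlap. It rose 1.88-fold (SE 0.10, adjusted p = 5.83e-05), and with median scaling its difference was 0.47 without a call (adjusted p = 0.090). Slc66a2, placed in no class, rose 1.77-fold (adjusted p = 2.24e-05).

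None of the 3 tested nucleoside and nucleotide carriers was called in limma, and 0 had an unadjusted p under 0.05. Slc29a1, the equilibrative nucleoside transporter of the plasma membrane, had a log2 difference of 0.02 (95% interval -0.26 to 0.30) and its lysosomal relative Slc29a3 one of -0.05 (-0.24 to 0.14). Slc17a9, which loads nucleotides into vesicles, was detected on 2 rat and 3 human arrays and differed by 0.23 (-0.28 to 0.74). Its human well 4 was the lowest, and without that well Slc17a9 was called higher (0.45, adjusted p = 0.046).

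Transporters and transporter partners that carry other symbols were read from a list of 40 entries, of which 27 were on the array and 16 tested. Of these 5 rose and 6 fell, with a median of -0.11, beside 23.5% and 32.0% and a median of -0.055 over all genes. Slco4a1, an organic anion transporter gene, rose 2.78-fold (adjusted p = 7.69e-05). Emb, whose product embigin escorts lactate transporters to the membrane, fell 2.15-fold (adjusted p = 9.76e-06). Bsg, the partner of the MCT4 protein, was not called (log2 difference 0.10, SE 0.20, adjusted p = 0.71). Its probe was dim, with mean log2 levels of 6.68 on rat and 6.77 on human arrays, which limits what this small difference can show.

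Probes of the same gene did not oppose each other in their calls. Of 37 Slc genes with several tested probes, 19 had the same call on all of them, 18 were called on some probes only and 0 had calls in opposite directions.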

How the data were processed

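Per the file headers, the first deposited table gives for every probe and array a linear intensity without normalisation and a detection p-value. Signals were not background subtracted. Nothing in the sources used here names the scanner, its software or the bead summary. In the second deposited table the authors had rescaled these intensities linearly within arrays, to medians of 352.6 to 367.7. Its method of scaling is unknown, and it served as an alternative. Probes were named through the platform annotation, which gave 1 symbol for 23978 of 25697 probes. The array files name no genome build, so coordinates are those of RefSeq promoters (GRCm38.p6) alone.

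Background was corrected with limma 3.58.1 (R 4.3.3) by normexp with an offset of 16. Its negative controls were taken from the detection p-values, then intensities were put on a log2 scale and arrays were quantile normalised. For dim probes the offset makes differences smaller. The difference of human and rat IAPP wells was estimated by lmFit and eBayes, with no covariate, over the 11451 probes detected on at least 4 of 8 arrays, with Benjamini-Hochberg adjustment and a threshold of 0.05. Only for the bounds marked by the words at least was the level of the undetected group replaced. It was taken per array as the lowest of any detected probe, or the probe's value if higher. The fit and its calls used the values without this step. No 2 arrays were identical (smallest SD of their log2 difference 0.211), and 4 arrays per group limit the precision. Rat replicate 4 stood apart on the second principal component, which held 8.18% of the variance. Replicate numbers did not pair the wells: correlations of same-numbered deviations were -0.11, -0.0080, 0.17 and -0.016.

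Members, substrate classes and lists were chosen with earlier results of these data known. Named are the 12 largest rises and 12 largest falls among called Slc genes whose groups do not overlap, the 4 smallest p and the brightest gene of each class, and a fixed list of well-known carriers. Named after their values were seen were Slc50a1, Slc2a8, Slc2a2, Slc45a4, Slc37a3, Slc7a8, Slc7a6, Slc7a7, Slc7a1, Slc6a12, Slc6a13, Slc6a19, Slc15a4, Slc66a1, Slc66a2, Slc36a1, Slc38a7, Slc39a6, Slc39a10, Slc39a1, Slc30a6, Slc41a3, Slc20a2, Slc25a33, Slc25a39, Slc25a15, Slc25a20, Slc25a1, Slc25a10, Slc25a11, Slc35a2, Slc35b3, Slc44a1, Slc17a5, Slc5a6, Xpr1, Slco4a1, Emb and Bsg. Classes follow family and gene by known substrate. Alternatives were no background correction, an offset of 50, median scaling, the authors' values, 2 other filters, a trended robust prior, a replicate block, each array left out, rat replicate 4 as the only control, the mean over probes and a threshold of 0.01. The fit and its calls were tested on arrays simulated around the normalised values. Background correction, normalisation, the detection rule and the bounds were not tested in this way.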

Additional observations from a re-analysis of the deposited data

Results flagged for a closer look

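In 19 of 294 groups of 4 wells (147 genes, 2 groups each; 6.46%), 1 well lay far from the other 3 by Dixon's test, while chance flags about 1 in 20 groups. Values are log2 levels, with the range of the other 3 wells in parentheses, and no explanation was tested.

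With rat IAPP, well 1 was high for Slc16a10 at 11.13 (10.85 to 10.89) and Slc31a1 at 12.79 (12.66 to 12.67), and low for Slc25a35 at 6.07 (6.50 to 6.58), Slc30a6 at 10.04 (10.23 to 10.27) and Slc35f6 at 7.03 (7.25 to 7.26). Rat well 2 was high for Slc46a1 at 8.15 (7.91 to 7.94). Rat well 3 was high for Slc20a1 at 6.59 (6.00 to 6.03), the 1 rat array that detected this gene, and low for Slc25a26 at 8.02 (8.22 to 8.25). Rat well 4 was low for Slc25a16 at 10.22 (10.69 to 10.78) and high for Slc35e3 at 10.73 (10.35 to 10.38) and Slc6a13 at 9.57 (9.19 to 9.23).

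With human IAPP, well 1 was low for Slc22a4 at 9.12 (9.34 to 9.35), and well 2 was high for Slc25a1 at 10.87 (10.78 to 10.79). Human well 3 was high for Slc11a1 at 15.63 (15.49 to 15.50) and Slc15a3 at 14.91 (14.76 to 14.79). Human well 4 was low for Slc17a9 at 5.57 (6.43 to 6.49), Slc35a2 at 8.16 (8.32 to 8.34) and Slc9a9 at 7.01 (7.52 to 7.62), and high for Slc7a6 at 8.47 (8.04 to 8.11).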

How the results depend on the processing

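Over all tested Slc genes and alternatives, 2453 values kept their call or stayed without one, 105 lost the call, 56 gained one and 11 changed sign with a call in at least one of the compared fits. The first count holds 107 values without a call in either fit whose sign changed. The reversals were, with median scaling, Slc15a4 (-0.11), Slc25a38 (-0.17), Slc27a1 (-0.048), Slc30a6 (-0.16), Slc35a2 (-0.14), Slc35b3 (-0.17) and Slc44a2 (-0.022), and, in the authors' rescaled values, Slc11a1 (0.35), Slc25a3 (0.18), Slc25a5 (0.074) and Slc35b1 (0.17). The cause of each change was not tested. With median scaling, 20 Slc genes and 21 Slc probes rose, with 7 amino acid, 6 ion and metal, 2 mitochondrial, 1 Slc35 and 1 organic ion gene among the rises. Of 43 rises 23 and of 45 falls 1 then lost the call. Class medians, beside -0.39 over all probes, were then -0.25 for sugars, 0.038 for amino acids, -0.40 for ions and metals, -0.41 for nucleosides, -0.50 for mitochondrial carriers, -0.37 for Slc35 and -0.50 for organic ions.

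In the authors' rescaled values, 9 mitochondrial and 5 Slc35 genes rose, with medians of 0.19 for amino acids, 0.037 for ions and metals, -0.061 for mitochondrial carriers, 0.057 for Slc35 and -0.036 for organic ions. Without background correction the medians were 0.16 for amino acids, -0.19 for mitochondrial carriers and -0.067 for organic ions. With no filter they were 0.096 for amino acids, 0.021 for ions and metals, -0.035 for mitochondrial carriers and -0.033 for organic ions, and 1 Slc35 gene rose. Among genes detected on all 8 arrays 2 sugar genes fell. With the mean over probes the mitochondrial median was -0.15. At a threshold of 0.01, 3 mitochondrial and 1 Slc35 genes rose.

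With rat replicate 4 as the only control, a group of 1 well whose spread is assumed to be that of the others, 2 sugar and 5 mitochondrial genes fell and 1 Slc35 gene rose. Medians were then -0.16 for sugars, 0.41 for amino acids, -0.0057 for ions and metals, -0.16 for nucleosides, -0.15 for mitochondrial carriers and -0.088 for Slc35. With the replicate number as a block, 1 Slc35 gene rose, the calls of Slc12a2, Slc15a4, Slc25a38, Slc35a2 and Slc35b3 were lost and that of Slc25a35 was gained, although the numbers did not pair the wells. Leaving out each well in turn gave 37 to 45 rises and 44 to 49 falls among Slc genes. Slc35 rises then ran from 1 to 3, with 1 without rat replicate 2 or without human replicate 1, 2 or 3. Nucleoside rises ran from 0 to 1, and medians from -0.0016 to 0.18 for sugars, 0.22 to 0.35 for amino acids, -0.074 to -0.012 for ions and metals and -0.28 to -0.22 for mitochondrial carriers. Dim genes are limited by signal over background, since values that keep the background shrink their differences.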
